A study of Mus musculus with 79 samples.

Results

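Wild-type (WT) mouse embryonic fibroblasts were followed through 20 h of the circadian cycle, in 18 of the 79 libraries of a study on the metabolic enzyme AHCY and the clock. They are all the libraries deposited as the WT series, with 3 at each of 6 circadian times (CT). Sampling began at CT12, was repeated every 4 h and ended at CT32, where a time is the number of hours since dexamethasone. The cells carried the genotype WT on a C57BL/6J background and came from embryos. They had grown to confluence and all received 100 nM dexamethasone, a glucocorticoid, for 1 h, so no library shows cells without the hormone. The labels call the 3 libraries of a time biological replicates and do not say whether each began as its own culture. A second set of 6 libraries, from fibroblasts of the same background given DMSO, the solvent of the inhibitor 3-deazaneplanocin A, and the same hormone pulse, was collected at CT12 and CT24 with 3 libraries each. It shares no library with the WT series and serves as a comparison. The 18 AHCY null fibroblast libraries at the same 6 times, here called KO, are used only to look for muscle mRNAs.

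In the mammalian clock the activators BMAL1 (gene Arntl) and CLOCK bind E-box sequences and switch on the Per and Cry genes, whose proteins return to block them. The same activators switch on Nr1d1 and Nr1d2, which encode the receptors REV-ERB alpha and beta. These repress Arntl through ROR elements, which the ROR receptors use to activate it. The output factors DBP, TEF and HLF act on D-boxes, where NFIL3 opposes them, and they carry the rhythm to other genes. Dexamethasone acts through the glucocorticoid receptor and induces Per1, which sets the clocks of cultured fibroblasts to a common phase.

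The promoters of the clock genes with such elements frame the time course. Windows of 300 bases, from 250 bases before to 50 bases after an annotated start, were taken from RefSeq on GRCm38.p6 and searched on both strands for 5 motifs. These were the E-box CACGTG, the E'-box CACGTT, the D-box TTATGNAA, the ROR element TAGGTCA and its variant TGGGTCA, none of which can be read as another. Among all 32851 windows, 7.15% held the E-box, 4.69% the E'-box, 3.39% the D-box, 2.61% the ROR element and 3.98% the variant. Of the 21 listed clock genes, 18 had at least 1 window, and Per2 had no entry. The E-box was present in 5 of the 18 (Bhlhe41, Ciart, Cry1, Per1 and Tef), the E'-box in 4 (Cry1, Cry2, Nr1d1 and Rorb), the D-box in 2 (Per1 and Per3), the ROR element in 2 (Arntl and Nfil3) and the variant in 0. The windows of Dbp, Nr1d1, Arntl and Cry1 are shown as main clock genes, and those of Tef, Per3 and Nfil3 were chosen after their motifs were seen. Arntl and Tef have 2 starts each. For Arntl the window with a match is shown, and for Tef, where both windows hold an E-box, the first. Capitals mark the matches, on either strand.
Cry1, chr10:85185005-85185304, minus strand: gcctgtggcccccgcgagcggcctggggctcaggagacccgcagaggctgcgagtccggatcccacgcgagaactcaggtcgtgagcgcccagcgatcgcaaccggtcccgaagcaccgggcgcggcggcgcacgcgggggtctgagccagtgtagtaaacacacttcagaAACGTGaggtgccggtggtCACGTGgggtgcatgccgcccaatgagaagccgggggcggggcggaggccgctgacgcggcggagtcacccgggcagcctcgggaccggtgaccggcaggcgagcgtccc
Nr1d1, chr11:98775328-98775627, minus strand: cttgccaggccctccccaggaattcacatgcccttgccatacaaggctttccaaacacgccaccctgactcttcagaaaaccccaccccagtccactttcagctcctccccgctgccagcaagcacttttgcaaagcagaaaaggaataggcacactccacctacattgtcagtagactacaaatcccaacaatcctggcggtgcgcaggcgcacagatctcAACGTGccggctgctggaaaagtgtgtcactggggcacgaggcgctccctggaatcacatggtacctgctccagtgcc
Tef, chr15:81802423-81802722, plus strand: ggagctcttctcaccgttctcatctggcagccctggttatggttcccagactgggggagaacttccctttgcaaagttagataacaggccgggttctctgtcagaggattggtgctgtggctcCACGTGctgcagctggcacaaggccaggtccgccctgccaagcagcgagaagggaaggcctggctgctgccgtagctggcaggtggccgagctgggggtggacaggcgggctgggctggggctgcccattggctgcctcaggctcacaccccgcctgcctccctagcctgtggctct
Dbp, chr7:45704997-45705296, plus strand: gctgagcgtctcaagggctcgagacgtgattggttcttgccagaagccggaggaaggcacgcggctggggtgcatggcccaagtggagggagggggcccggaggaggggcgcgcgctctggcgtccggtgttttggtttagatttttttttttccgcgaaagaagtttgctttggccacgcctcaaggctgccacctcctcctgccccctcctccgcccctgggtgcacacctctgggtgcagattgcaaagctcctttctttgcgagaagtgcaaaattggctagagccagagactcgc
Per3, chr4:151044616-151044915, minus strand: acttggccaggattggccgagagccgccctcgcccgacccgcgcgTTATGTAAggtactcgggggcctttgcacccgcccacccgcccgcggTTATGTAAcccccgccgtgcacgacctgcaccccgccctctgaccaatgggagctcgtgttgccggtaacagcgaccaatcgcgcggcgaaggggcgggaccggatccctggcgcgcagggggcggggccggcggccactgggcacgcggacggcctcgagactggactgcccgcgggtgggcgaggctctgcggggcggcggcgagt
Arntl, chr7:113207261-113207560, plus strand: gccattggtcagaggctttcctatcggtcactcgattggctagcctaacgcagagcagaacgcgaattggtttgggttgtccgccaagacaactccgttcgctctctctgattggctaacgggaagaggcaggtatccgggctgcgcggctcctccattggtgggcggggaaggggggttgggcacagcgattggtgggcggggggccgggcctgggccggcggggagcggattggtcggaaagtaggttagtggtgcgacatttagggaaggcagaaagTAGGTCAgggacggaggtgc
Nfil3, chr13:52980990-52981289, minus strand: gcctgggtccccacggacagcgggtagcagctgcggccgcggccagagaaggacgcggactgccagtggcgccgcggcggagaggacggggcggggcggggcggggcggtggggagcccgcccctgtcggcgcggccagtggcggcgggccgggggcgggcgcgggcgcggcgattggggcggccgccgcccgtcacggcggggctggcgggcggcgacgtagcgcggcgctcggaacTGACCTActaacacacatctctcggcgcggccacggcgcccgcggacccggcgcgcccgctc

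The Cry1 window holds an E'-box at base 172 and an E-box at base 191, counted from its 5′ end, and the Nr1d1 window an E'-box at base 223. The Tef window has an E-box at base 124. Per3 carries D-boxes at bases 46 and 93. The ROR element of Nfil3 starts at base 239, within the part before the start, and that of Arntl at base 281. Dbp shows no match in this window, which says only that these letters are not in it.

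Each library summed to between 970075 and 980677 TPM (a transcript level scaled for gene length and library total), and between 12030 and 12735 genes reached 1 TPM. The number of reads is unknown, and no counting error can be given. All 18 fibroblast markers had a mean above 1 TPM, and their summed level stayed between 20564 and 22956 TPM. The 4 marker genes of the clock, Per2, Dbp, Arntl and Nr1d1, all passed the test for a 24 h rhythm. The nuclear RNA Malat1 exceeded 1000 TPM in 3 libraries, replicate 2 of CT16, of CT24 and of CT32, against 196 to 553 TPM in the other 15.

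The 3 CT20 libraries stood apart because they contained mRNAs of adult skeletal muscle. The 25 genes of a muscle fibre list, which encode contractile proteins and enzymes of the fibre, summed to 612, 602 and 800 TPM at CT20 and to between 40.3 and 52.0 TPM in the other 15 libraries, where Eno3, an enolase, alone supplied 31.8 to 42.3 TPM. In a bulk sample, fewer or more cells of a type and less or more RNA per cell cannot be told apart. Ckm, the muscle creatine kinase (chromosome 7, 19404776 to 19422841, plus strand), was at 45.7, 43.3 and 62.9 TPM at CT20, while no other library exceeded 0.0658 TPM and 11 were listed at 0. Myh4, a myosin of fast fibres, was at 37.1, 37.3 and 55.7 TPM at CT20 and listed at 0 in all other libraries. The skeletal actin gene Acta1 was at 75.0, 72.1 and 94.2 TPM at CT20, against 0.0936 to 0.840 TPM elsewhere. In each of these genes the CT20 libraries lay far above all others, and replicate 3 was the highest.

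Some markers of muscle precursors were near 0 throughout. In the list of embryonic and regenerating muscle, 3 genes had a mean of at least 1 TPM outside CT20 and 4 at CT20. Of 17 genes of embryonic and regenerating muscle, Myf5 and Tmem8c were listed at 0 in every library and Myod1, Myog and Pax7 stayed at or below 0.0750 TPM, although Myod1 was above 0 only at CT20. Of the 5 tested, 2 lay above the curve at CT20, the cardiac actin gene Actc1 by 1.36 and the desmin gene Des by 1.80 on the log2 scale, and the list summed to 81.3 to 107 TPM at CT20 and 70.7 to 147 TPM elsewhere. The beta-globin gene Hbb-b1 was at 3.41, 2.12 and 3.30 TPM at CT20 and listed at 0 in the other 15 libraries. KO fibroblasts at CT20 showed no such rise, with fibre sums of 89.5 to 93.5 TPM at CT20 and 72.1 to 94.1 TPM at their other times, and Ckm no higher than 0.0429 TPM in any of them. Endothelial and mural markers summed to 208 to 228 TPM at CT20, inside their range of 146 to 280 TPM at the other times, and macrophage and blood markers to 33.6 to 37.3 TPM against 27.3 to 38.0 TPM. The fibroblast markers, at 21793 to 22346 TPM, stayed inside their range as well. Of 10 macrophage and blood genes, 1 had a mean of at least 1 TPM outside CT20 and 3 at CT20. Of 10 adipocyte genes, whose sum kept its range, 2 did so outside CT20 and 4 at CT20. Above the curve at CT20 lay 1 of 2 tested macrophage and blood genes and 1 of 3 tested adipocyte genes. When 1 library was left out, each of these counts fell to 0 in at least 1 fit. Hbb-b1 reached the filter of 1 TPM in 3 libraries only through CT20, so these counts are a description. The number with such a mean was unchanged in the endothelial and mural, epithelial, chondrocyte and osteoblast, and neural lists. The part of the muscle mRNAs in other results at CT20 was not tested, and every gene named below as passing the cosine test also passed it without these 3 libraries.

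**Figure D1:**
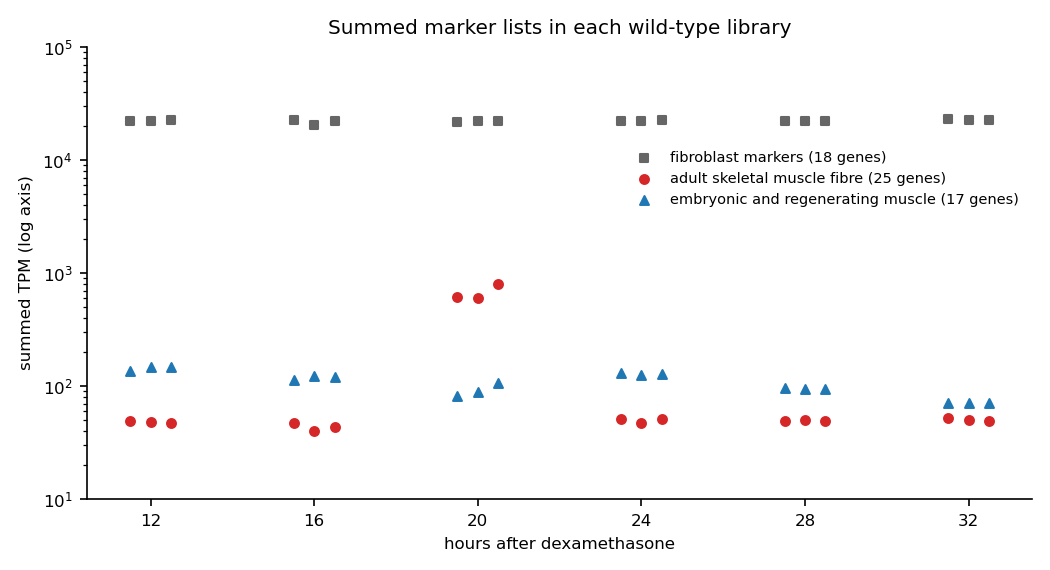
Summed TPM of 3 marker lists (log axis) in each of the 18 WT libraries against hours after dexamethasone, one symbol per library. The 3 CT20 libraries reach 602 to 800 TPM for adult skeletal muscle fibre genes against 40.3 to 52.0 TPM in the others, while fibroblast markers and the list of embryonic and regenerating muscle keep their range.

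A test for genes that leave the curve at CT20, limma with a CT20 term beside the cosine, called 165 of 12955 genes higher (1.27%) and 69 lower (0.533%). Their total of 234 moved with single libraries, to 40, 37 and 68 without replicate 1, 2 or 3 of CT20. It was 111 and 131 without replicate 1 or 2 of CT24, and 496 without replicate 2 of CT16. Without CT20 the filter kept 12869 genes, so some of the 12955 were tested only because of CT20. Such genes may leave the test when 1 CT20 library is left out, so the counts of 40, 37 and 68 partly reflect the filter. The 23 muscle fibre genes tested were all among the higher, but most reached the filter of 1 TPM in 3 libraries only through CT20, so that 6 were left to test without any 1 CT20 library, and their count is a description. The 6 named genes with the largest rise were Acta1, Myl1, Ckm, Pvalb, Tnnt3 and Myh4, all of the fibre. Pvalb, the calcium-binding parvalbumin of fast fibres, went from at most 0.0539 TPM elsewhere to 43.4, 43.1 and 56.3 TPM.

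The 6 named genes that dropped furthest below the curve at CT20 were Egr1, E2f1, Dusp5, Phlda1, Nr4a1 and Tfdp1. Egr1, an immediate early transcription factor, was at 28.2, 28.2 and 26.001 TPM at CT20 between 49.0, 48.3 and 51.9 TPM at CT16 and 128, 133 and 126 TPM at CT24. It lay 2.07 below the curve on the log2 scale (adjusted p = 0.011, limma), a curve that its high level at CT24 lifts. Tfdp1, the partner of E2F factors, stood at 40.8, 37.6 and 35.3 TPM at CT20, below all libraries of CT12, CT16, CT24 and CT28, and 0.97 below the curve (adjusted p = 0.0023). Nr4a1, an orphan receptor of the immediate early class, was at 11.3 ± 1.24 TPM at CT20 and 27.4 ± 0.722 TPM at CT24 (SD, n = 3 each), 0.99 below the curve (adjusted p = 2.2e-05). Means ± SD from here on are of the 3 libraries of a time.

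Most clock genes followed a 24 h wave in WT fibroblasts. A 24 h cosine passed the limma test in 16 of the 18 clock genes tested (3 of 5 activators, 9 of 9 repressors and 4 of 4 output genes), against 1524 of all 12955 genes, or 11.8%. Their amplitudes, the distance from mean to peak on a log2(TPM + 1) scale, had a median of 0.23 in activators, 1.02 in repressors and 0.90 in output genes, against 0.099 over all genes tested. The 2 genes not called were Clock and Rora, while Rorb stayed below the filter. Without CT20 the same count, 16, passed, and without the 3 libraries with high Malat1, a fit added after the data were seen, 14 did (1 of 5 activators, 9 of 9 repressors and 4 of 4 output genes). Only the sampled 20 h bear on these curves, which is less than a full cycle.

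Among the activators, Arntl and Npas2 had their trough at CT24. Arntl, whose protein BMAL1 pairs with CLOCK, was at 18.4, 18.4 and 17.9 TPM at CT12, 16.0, 15.5 and 16.5 at CT16, 6.73, 7.002 and 8.31 at CT20, 6.04, 5.97 and 5.81 at CT24, 13.0, 14.1 and 13.7 at CT28 and 16.4, 15.9 and 17.1 at CT32. The libraries of CT20 and CT24 lay below all others, and those of CT12 above all others. The fitted amplitude was 0.75 (SE 0.070) with a peak at 10.8 h (SE 0.36), equal to 34.8 h one cycle on (adjusted p = 3.4e-05, limma), and without CT20 it was 0.72.

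Npas2, which can take the place of CLOCK, was lowest at CT24 (0.932 ± 0.195 TPM) and highest at CT32 (3.96 ± 0.216 TPM), where all 3 libraries lay above every other library. Its amplitude was 0.48 (SE 0.094, adjusted p = 0.011). Clock itself ranged from 8.02 ± 1.305 TPM at CT24 to 11.5 ± 2.71 TPM at CT16, with overlapping libraries at neighbouring times and an amplitude of 0.20 (SE 0.079, adjusted p = 0.17). Rora varied within single times, from 2.7e-05 to 1.71 TPM among the 3 libraries of CT24. Arntl2, a second BMAL gene, had an amplitude of 0.10 (SE 0.026, adjusted p = 0.044), stood at 20.8 ± 0.431 TPM at CT12 and between 24.2 ± 0.157 and 26.4 ± 1.91 TPM at later times, and passed in 6 of the 18 fits that each left out 1 library.

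The repressors rose together between CT16 and CT20. From CT16 to CT20 all 9 passed the limma test upward, with a median log2 change of 0.84, while 24% of all genes changed in either direction at this step. Per2, the core repressor (chromosome 1, 91415982 to 91459324, minus strand), was at 0.228, 0.217 and 0.281 TPM at CT12, 0.589, 0.450 and 0.504 at CT16, 2.99, 3.54 and 3.23 at CT20, 6.73, 6.98 and 6.09 at CT24, 2.87, 2.76 and 2.80 at CT28 and 1.295, 1.21 and 1.37 at CT32. No library of CT24 overlapped any other time, and CT32 remained above CT16. Its amplitude of 1.25 (SE 0.068) had the smallest adjusted p of the clock genes (6.8e-08, limma), and its peak at 24.4 h (SE 0.21) moved to 24.5 h without CT20.

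The other Per genes rose at the same step with different sizes. Per1, which glucocorticoids induce, went from 7.53 ± 0.722 TPM at CT12 to 16.7 ± 0.440 at CT20 and 16.3 ± 0.944 at CT24. Its amplitude was 0.44 (SE 0.060, adjusted p = 0.0010, limma). Per3 went from 0.626 ± 0.389 to 5.06 ± 1.07 TPM between CT12 and CT20 and had an amplitude of 1.02 (SE 0.16, adjusted p = 0.0035). In Per3 the 3 libraries of CT16 spread from 1.97e-05 to 1.09 TPM, so its low times are imprecise.

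Both Cry genes had their highest mean at CT24. Cry1 (chromosome 10, 85131700 to 85185064, minus strand) was at 4.18, 4.15 and 4.69 TPM at CT12, 2.35, 2.34 and 2.78 at CT16, 5.64, 4.46 and 5.74 at CT20, 15.6, 14.5 and 14.6 at CT24, 12.7, 15.0 and 14.9 at CT28 and 7.82, 6.65 and 7.96 at CT32. Its trough came at CT16, when no library overlapped another time, and CT24 and CT28 overlapped each other above the rest. The amplitude was 1.08 (SE 0.070) and the peak 26.8 h (SE 0.25, adjusted p = 3.3e-07, limma). Cry2 rose from 3.24 ± 0.127 TPM at CT12 to 7.85 ± 0.282 at CT24 and was still at 6.74 ± 0.274 at CT32 (amplitude 0.47, SE 0.057, adjusted p = 0.00033).

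Nr1d1 and Nr1d2 peaked first. Nr1d1, which encodes REV-ERB alpha (chromosome 11, 98767932 to 98775333, minus strand), was at 6.87, 6.94 and 6.82 TPM at CT12, 18.2, 16.4 and 18.8 at CT16, 32.8, 32.9 and 31.1 at CT20, 13.1, 14.6 and 14.1 at CT24, 6.11, 5.71 and 6.25 at CT28 and 8.44, 8.40 and 6.93 at CT32. The CT20 libraries lay above all others and the CT28 libraries below all others. The amplitude was 1.04 (SE 0.10, adjusted p = 4.7e-05, limma) and fell to 0.81 without CT20, still called (adjusted p = 0.0022). Thra overlaps Nr1d1 on the other strand, and reads of the overlap cannot be told apart. Nr1d1 lay 0.68 above the curve at CT20 without passing the test (adjusted p = 0.082). Nr1d2, for REV-ERB beta, ran from 9.94 ± 0.253 TPM at CT12 to 59.6 ± 4.16 at CT20, with an amplitude of 1.17 (SE 0.077, adjusted p = 3.3e-07).

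Bhlhe40 and Bhlhe41, which encode the E-box repressors DEC1 and DEC2, had smaller waves. Bhlhe40 was at 29.9 ± 0.511 TPM at CT12, 43.2 ± 2.07 at CT20 and 25.97 ± 1.88 at CT32 (amplitude 0.31, SE 0.049, adjusted p = 0.0031), and Bhlhe41 at 2.61 ± 0.187, 4.24 ± 0.581 and 2.54 ± 0.108 TPM (amplitude 0.30, SE 0.045, adjusted p = 0.0021). Ciart, another repressor, is in the table under its older name Gm129 and is not counted above. It ran from 1.40 ± 0.315 TPM at CT16 to 2.81 ± 0.414 at CT24 with an amplitude of 0.27 (adjusted p = 0.093).

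Of the clock genes, Dbp had the largest fitted amplitude. Dbp (chromosome 7, 45705088 to 45710203, plus strand) was at 0.473, 0.610 and 0.748 TPM at CT12, 1.74, 1.15 and 1.69 at CT16, 15.4, 17.7 and 14.3 at CT20, 11.4, 12.1 and 11.1 at CT24, 4.71, 4.86 and 4.47 at CT28 and 3.64, 3.13 and 2.90 at CT32. The 6 times did not overlap. Its amplitude of 1.53 (SE 0.17) corresponds to an 8.37-fold peak to trough ratio on the log2(TPM + 1) scale (adjusted p = 0.00017, limma). Dbp was the only clock gene of the 18 tested that was called above its curve at CT20, by 1.44 (adjusted p = 0.0045), and without CT20 its amplitude was 1.29 and its peak moved from 23.4 to 24.5 h.

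Tef, a factor of the same family, was at 9.38, 9.06 and 8.86 TPM at CT12, 20.4, 16.4 and 19.6 at CT16, 56.7, 59.1 and 56.0 at CT20, 62.3, 60.7 and 61.6 at CT24, 30.8, 30.2 and 30.0 at CT28 and 19.9, 19.3 and 20.8 at CT32. CT24 lay above every other library, with CT20 next, and CT16 overlapped CT32. The amplitude was 1.25 (SE 0.080, adjusted p = 3.3e-07, limma). Hlf, the third member, rose from 7.20 ± 0.534 TPM at CT12 to 21.0 ± 0.927 at CT20 and did not come down again by CT32 (21.4 ± 2.44), so its fitted amplitude of 0.55 (SE 0.11, adjusted p = 0.016) describes a rise and a plateau. Nfil3, the opponent of this family on D-boxes, moved the other way, with 35.9 ± 1.82 TPM at CT20, 58.3 ± 0.370 at CT28 and 68.9 ± 1.33 at CT32 (amplitude 0.41, SE 0.046, adjusted p = 0.00017).

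**Figure D2:**
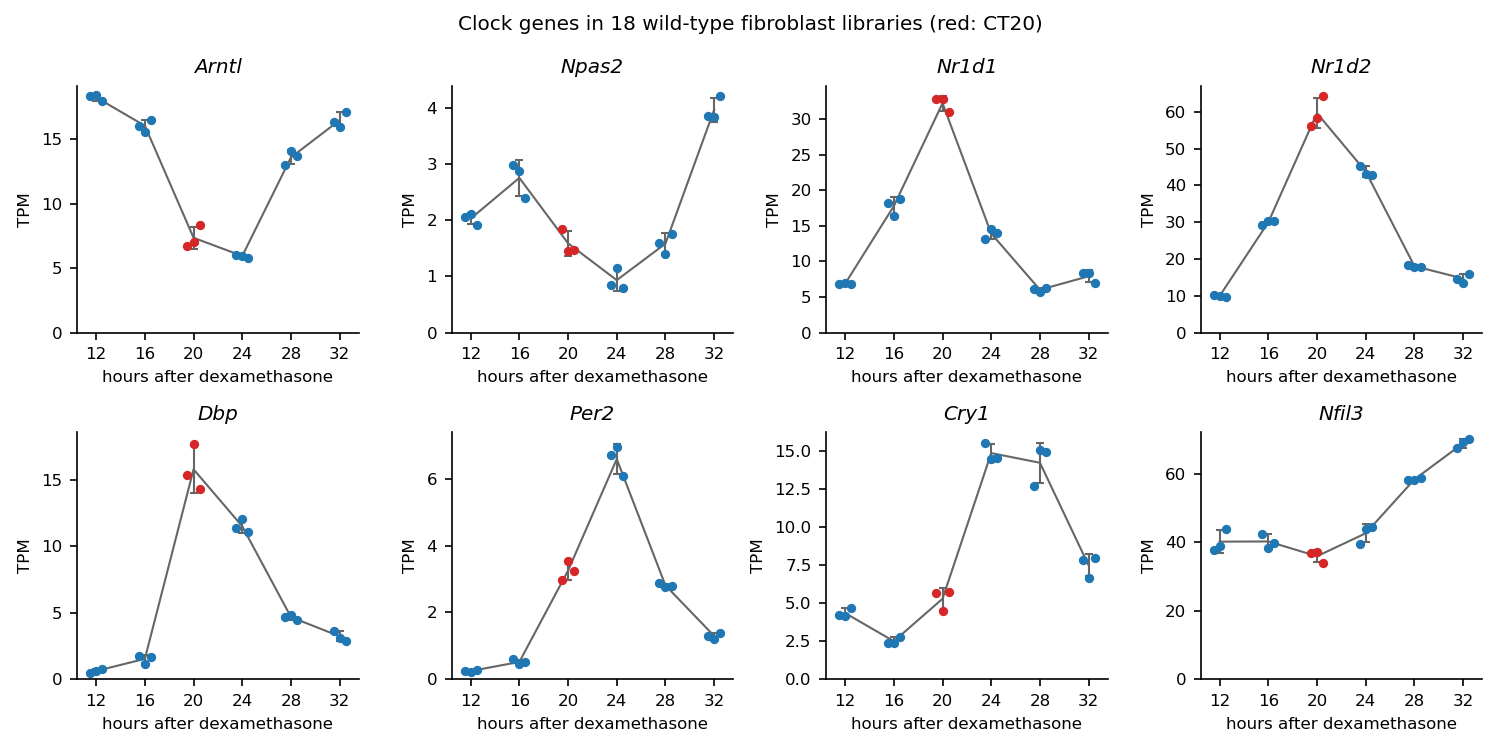
TPM of 8 clock genes (linear axes from 0) in each of the 18 WT libraries against hours after dexamethasone. Points are libraries, red at CT20, and the line with bars gives the mean ± SD of 3. Arntl has its trough at CT24, Nr1d1 and Dbp are highest at CT20, Per2 at CT24, and Nfil3 at CT32.

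The fitted peaks of the 16 rhythmic clock genes had an order. From Nr1d1 at 19.4 h (SE 0.38) and Nr1d2 at 21.2 h (SE 0.25), it ran through Bhlhe40 at 21.8 h, Bhlhe41 at 22.3 h, Tef at 23.3 h, Dbp at 23.4 h, Per3 at 23.8 h, Per1 at 24.1 h, Per2 at 24.4 h, Arntl2 at 24.6 h, Cry2 at 25.1 h and Hlf at 25.2 h to Cry1 at 26.8 h (SE 0.25) and Nfil3 at 30.5 h (SE 0.43). Arntl and Npas2 closed the turn at 34.8 h and 35.1 h, just after the last sampled time. Between neighbours, the gap exceeded its 95% error from Nr1d1 to Nr1d2 (1.81 h, SE 0.45), from Cry1 to Nfil3 (3.62 h, SE 0.49), from Nfil3 to Arntl (4.33 h, SE 0.56) and from Npas2 to Nr1d1 of the next turn (8.30 h, SE 0.83). From Nr1d2 to Cry1, neighbouring genes did not differ beyond their errors.

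Relative to Nr1d1, Per2 came 4.95 h later and Cry1 7.41 h later. The rhythmic genes with an E-box or E'-box in a window (Nr1d1, Bhlhe41, Tef, Per1, Cry2 and Cry1) peaked between 19.4 and 26.8 h, and so did Nr1d2, Dbp, Per3, Arntl2 and Hlf, whose windows hold neither. Nfil3 and Arntl, with a ROR element in a window, peaked at 30.5 and 34.8 h, and Npas2, with none, at 35.1 h. With a linear time trend in the fit, all 16 genes still passed, and the peaks of Hlf, Arntl2, Per1, Cry2, Npas2 and Nfil3 moved the furthest, for Hlf from 25.2 to 19.8 h, for Arntl2 from 24.6 to 20.3 h and for Per1 from 24.1 to 21.3 h.

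**Figure D3:**
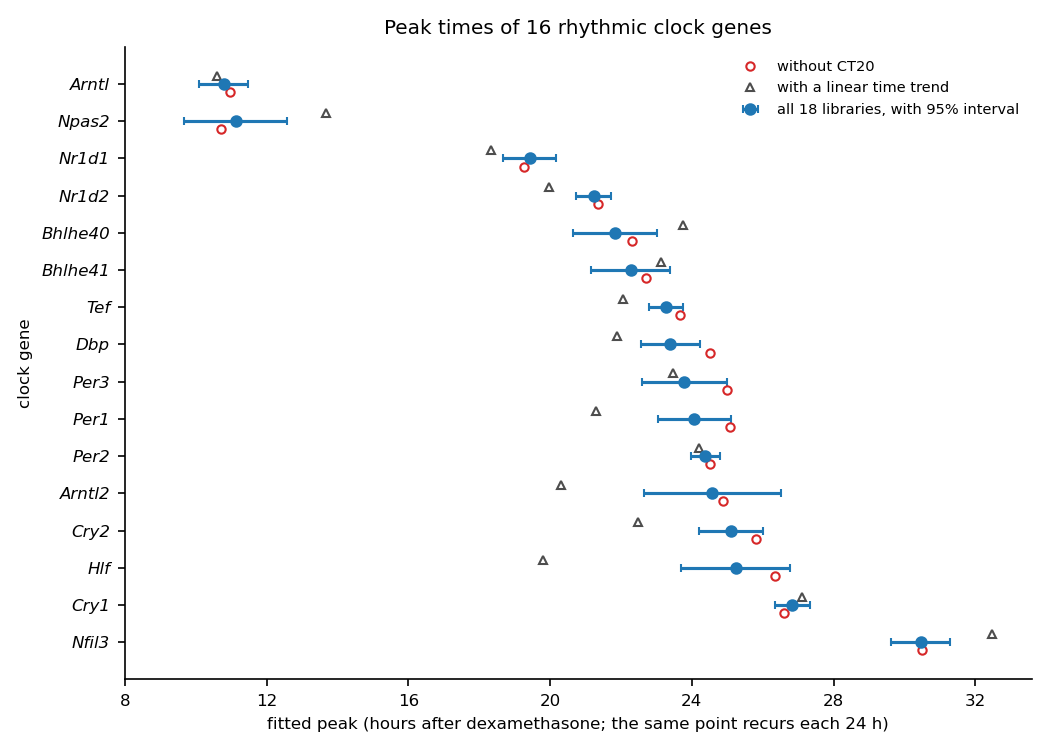
Fitted peak time in hours after dexamethasone of the 16 rhythmic clock genes, in order. Filled points with bars give the fit to all 18 libraries with a 95% interval, open circles the fit without CT20 and triangles the fit with a linear time trend. Nr1d1 leads at 19.4 h, 12 genes lie from Nr1d2 at 21.2 h to Cry1 at 26.8 h, and Nfil3 is last at 30.5 h before Arntl at 34.8 h (drawn at 10.8 h).

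Most clock genes that differed between CT12 and CT24 in WT differed the same way in the DMSO fibroblasts. The tables were normalized separately, so the change was tested within each. In the WT series 17.9% of 12955 genes were higher at CT24 and 21.1% lower, and in the DMSO fibroblasts 15.7% of 10611 were higher and 17.7% lower. Of 17 clock genes tested in both, 15 passed in each and 14 in both with the same sign (12 higher, 2 lower), with none called in opposite directions. Per2 rose by 2.60 in WT (SE 0.065, adjusted p = 1.8e-12, limma) and by 1.67 in DMSO fibroblasts (SE 0.14, adjusted p = 0.0014), where it went from 0.139 ± 0.0571 to 2.58 ± 0.539 FPKM (fragments scaled for gene length and library total).

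Dbp rose by 2.94 in WT (SE 0.10) and by 2.65 in DMSO fibroblasts (SE 0.12, adjusted p = 0.00036), and Tef by 2.58 and 2.40. Nr1d1 rose by 0.87 and 1.48. Arntl fell in both, with log2 changes of -1.53 and -1.12, as did Npas2 (-0.69 and -0.37). Nfil3 differed between the sets in its call, with a change of 0.027 in WT (adjusted p = 0.76) and 0.30 in DMSO fibroblasts (adjusted p = 0.035), and the difference between the sets was not tested. Without replicate 1 of DMSO at CT24 the count of 14 fell to 9.

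Regulators of clock proteins had no call with all 18 libraries. None of 10 clock kinase and ligase genes, such as Csnk1d and Csnk1e, which act on PER proteins, passed the cosine test in limma. An unadjusted p below 0.05 was found in 3, while 3 passed without CT20 and 2 with a trend term. Over all genes, 4719 of 12955 had such an unadjusted p, 28.6% passed without CT20 and 24.1% with a trend term. Csnk1d had an amplitude of 0.051 (adjusted p = 0.089) and Fbxl21 of 0.26 (adjusted p = 0.059). Of 20 tested genes that cycle in many tissues, 4 passed (20%, against 11.8% of all genes). Tsc22d3, a glucocorticoid target also known as GILZ, went from 12.0 ± 0.588 TPM at CT12 to 18.6 ± 2.17 at CT24 and back to 12.3 ± 2.63 at CT32 (amplitude 0.31, adjusted p = 0.0095). Wee1, a kinase that delays mitosis, was highest at CT24 (25.4 ± 0.924 TPM) and lowest at CT32 (15.9 ± 1.45), with an amplitude of 0.23 (adjusted p = 0.021). Nampt, of NAD salvage, stayed between 37.2 ± 1.24 and 45.5 ± 2.05 TPM (adjusted p = 0.19).

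Direct targets of the glucocorticoid receptor did not share a course. Of 22 tested, 8 passed the cosine test (36.4%, against 11.8% of all genes), with peaks between 10.8 and 30.6 h, and 5 did so with and without a trend term. Between CT12 and CT32, 12 rose and 4 fell, when 33.6% of all genes rose and 32.1% fell. Fkbp5, a classical target, stayed between 27.5 ± 0.931 and 31.6 ± 0.931 TPM (adjusted p = 0.47). Tgm2, a transglutaminase, rose from 25.2 ± 0.744 TPM at CT12 to 75.1 ± 3.37 at CT32, and Sgk1, a kinase, had a log2 change of -1.43 over the same span (adjusted p = 4.7e-11, limma).

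Of the 1524 called, 64 (0.494% of genes tested) had an amplitude of 0.5 or more, which is a peak to trough ratio of at least 2. This count was 189 without CT20, 156 with a linear trend and 123 with a pseudocount of 0.1. Counted against the spread between replicates alone, 53.7% passed, because departures from the cosine shape then leave the error. Any difference among the 6 times was called in 65.6% of genes. Leaving out CT20 raised the cosine count to 28.6%, with 1432 genes shared with the first count (94.0% of the 1524 and 39.0% of the 3675), and leaving out the 3 libraries with high Malat1 lowered it to 437. Replicate 2 of CT16 alone, 1 of these 3, brought it to 767.

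Most fitted peaks fell where a straight line over these hours would put them. A steady fall from CT12 to CT32 gives a fitted peak at 16 h and a steady rise one at 28 h. Of the 1524 genes, 491 peaked within 2 h of 16 h and 656 within 2 h of 28 h, while the windows around 12, 20, 24 and 32 h held 88, 89, 71 and 129. In 275 the mean rose at every step and in 110 it fell at every step, but in 0 of the 16 rhythmic clock genes. With a linear trend in the fit 24.1% of genes (3119) passed. By that fit 951 of them still peaked within 2 h of 16 h and 1452 within 2 h of 28 h. In all, 3.73% (483 genes) passed with and without the trend. Their peaks from the cosine alone were spread over the 6 windows as 64, 99, 62, 59, 107 and 92. For genes called by the cosine alone, a steady drift and a 24 h rhythm cannot be told apart over 20 h.

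**Figure D4:**
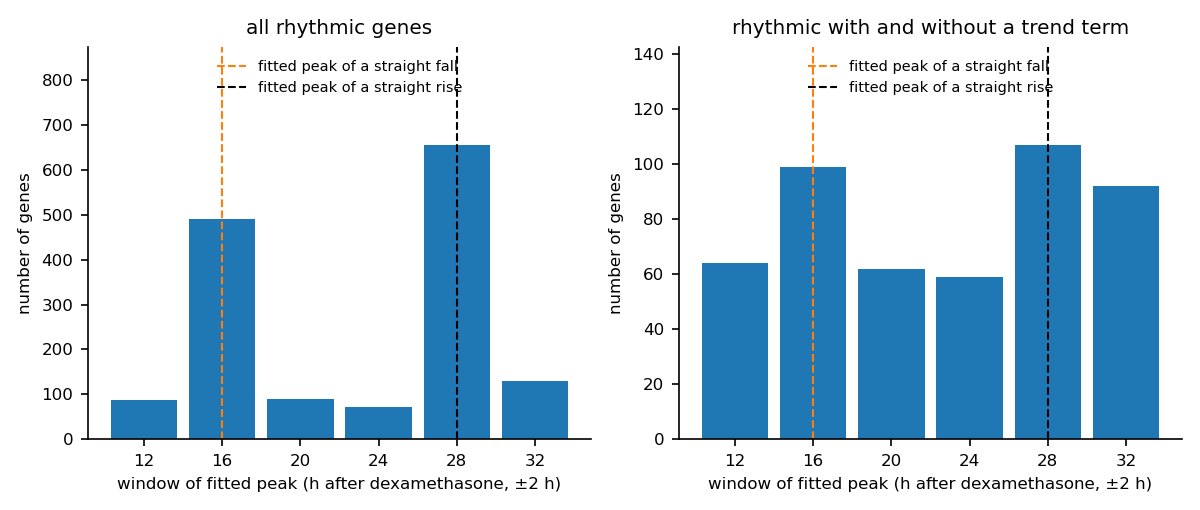
Number of rhythmic genes per 4 h window of fitted peak, in hours after dexamethasone, for all 1524 genes (left) and for the 483 called with and without a linear trend (right). Dashed lines mark the peak that the cosine assigns to a straight fall (16 h) and a straight rise (28 h). The 491 and 656 genes at these windows on the left shrink to 99 and 107 on the right, where peaks are from the cosine alone. Of the 3119 genes called with the trend (not drawn), 951 and 1452 peaked at these windows by that fit.

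Of the 24 genes named for the largest amplitude at each peak time, 10 were clock genes. Near CT20 these were Nr1d2, Nr1d1 and Bhlhe40, near CT24 all 4 were clock genes (Dbp, Tef, Hlf and Cry2), and Cry1, Arntl and Nfil3 were named near CT28, CT12 and CT32. Depdc1a, a gene with a role in mitosis, was also named near CT20 and went from 28.6 ± 2.51 TPM at CT12 to 36.9 ± 6.75 at CT20 and 21.1 ± 1.68 at CT32. Others with a turn inside the sampled hours included Aldh3a1 and Foxs1. Aldh3a1, an aldehyde dehydrogenase, was at 5.15, 3.91 and 4.64 TPM at CT12, 7.03, 6.63 and 6.52 at CT16, 9.08, 8.77 and 8.64 at CT20, 17.8, 15.8 and 17.1 at CT24, 19.6, 20.8 and 22.1 at CT28 and 15.6, 14.7 and 14.7 at CT32. The CT28 libraries lay above all others and no library of CT12 reached those of later times. Its amplitude was 0.93 (SE 0.074) and its peak 26.8 h (adjusted p = 5.5e-06, limma).

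Foxs1, a forkhead factor, fell from 13.9 ± 0.866 TPM at CT12 to 8.09 ± 0.353 at CT20 and reached 17.5 ± 1.21 at CT32 (amplitude 0.53, SE 0.038, adjusted p = 1.6e-06). Genes named near CT16 declined for most of the course, such as the connexin gene Gjb2, from 17.97 ± 1.17 TPM at CT12 to 2.91 ± 0.309 at CT32, and genes near CT28 included some that were highest at CT32, such as Agt, the precursor of angiotensin, which went from 9.57 ± 0.780 to 87.5 ± 12.9 TPM, and the carboxylesterase gene Ces1a, which went from 1.25 ± 0.0539 to 19.5 ± 0.474 TPM. With the trend term the fitted peak of Agt moved by over 6 h. Rpl26 and Rpl30, also named, belong to families with near-identical copies and are uncertain.

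Mitotic genes formed a low wave that ended in a fall. All 30 tested passed the cosine test, with peaks from 15.7 to 20.0 h (median 17.6 h) and a median amplitude of 0.26, against 11.8% of all genes. The count was 30 without CT20, 23 with a trend term and 19 without the libraries with high Malat1. Ccnb1, the cyclin of mitotic entry, stood at 195 ± 2.61 TPM at CT12, 217 ± 5.25 at CT16, 234 ± 13.8 at CT20, 190 ± 14.1 at CT24, 178 ± 2.08 at CT28 and 155 ± 7.16 at CT32 (amplitude 0.26, SE 0.033, adjusted p = 0.00052, limma). Cdc25b, the phosphatase that activates its kinase, rose from 27.9 ± 0.122 TPM at CT12 to 37.2 ± 1.38 at CT20 and was at 25.9 ± 1.36 at CT28 (adjusted p = 2.5e-05). From CT20 to CT24, 21 of the 30 fell and 0 rose, at a step where 13.6% of all genes changed. Between CT12 and CT32, 24 of the 30 fell and 0 rose (median log2 change -0.44), when 32.1% of all genes fell. The fitted peak of a straight fall, 16 h, lies within the range of their peaks.

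Genes of DNA replication declined further. Of 30 tested, 1 (Ccna2, at 16.9 h) passed the cosine test and all 30 fell from CT12 to CT32, with a median log2 change of -1.10 against 0.035 over all genes. The cosine count depended on the fit. It was 15 without CT20 and 26 with a trend term, when 28.6% and 24.1% of all genes passed. The helicase subunit gene Mcm3 was at 208, 216 and 217 TPM at CT12, 177, 160 and 174 at CT16, 118, 119 and 126 at CT20, 167, 147 and 150 at CT24, 136, 129 and 128 at CT28 and 76.5, 83.5 and 83.2 at CT32. CT12 lay above and CT32 below all other libraries, and CT24 lay above CT20. From CT20 to CT24, when 13.6% of all genes changed, 16 of the 30 rose and 1 fell. From CT28 to CT32, when 28.4% of all genes changed, 29 fell. In the DMSO fibroblasts all 30 tested were lower at CT24 than at CT12, when 17.7% of all genes were lower. In WT, the count of 30 that fell from CT12 to CT32 held without the libraries with high Malat1, on unscaled deposited values and under quantile normalization.

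Contractile genes that SRF and YAP control fell early. From CT12 to CT16, when 26.9% of all genes changed, 16 of 17 fell and 0 rose, and 14 were lower at CT32 than at CT12. Tagln, the actin-binding protein transgelin, was at 314, 323 and 338 TPM at CT12, 211, 202 and 214 at CT16, 125, 132 and 139 at CT20, 104, 107 and 112 at CT24, 93.4, 89.9 and 95.8 at CT28 and 87.9, 86.9 and 87.9 at CT32. The 6 times did not overlap, and each lay below the one before. Acta2, smooth muscle actin, fell from 765 ± 15.2 to 320 ± 8.72 TPM between CT12 and CT24 and was at 311 ± 17.3 TPM at CT32. Myl9, a myosin light chain, dropped from 81.98 ± 2.21 TPM at CT12 to 29.0 ± 2.91 at CT20 and came back to 58.7 ± 6.19 at CT32 (amplitude 0.60, SE 0.084, adjusted p = 0.0012, limma). Of the 17, 8 passed the cosine test and 17 passed with a trend term, against 11.8% and 24.1% of all genes.

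Immediate early genes had a spike at CT24. From CT20 to CT24, when 13.6% of all genes changed, 16 of 21 rose and 0 fell, with a median log2 change of 0.53. From CT24 to CT28, when 10.2% of all genes changed, 12 fell and 0 rose. Egr1 was at 128, 133 and 126 TPM at CT24, more than in any other library, the next being 55.9 TPM at CT12. Fos, a subunit of AP-1, was at 9.28, 8.59 and 9.54 TPM at CT24 and between 1.96 and 2.82 TPM elsewhere. Neither gene passed the cosine test (adjusted p = 0.47 for Egr1 and 0.16 for Fos). In the DMSO fibroblasts 5 of 19 were higher and 5 lower at CT24 than at CT12, when 15.7% of all genes were higher and 17.7% lower. Egr1 fell there by 0.52 on the log2 scale (adjusted p = 0.012, limma). Without the libraries with high Malat1, 15 of 21 rose from CT20 to CT24.

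**Figure D5:**
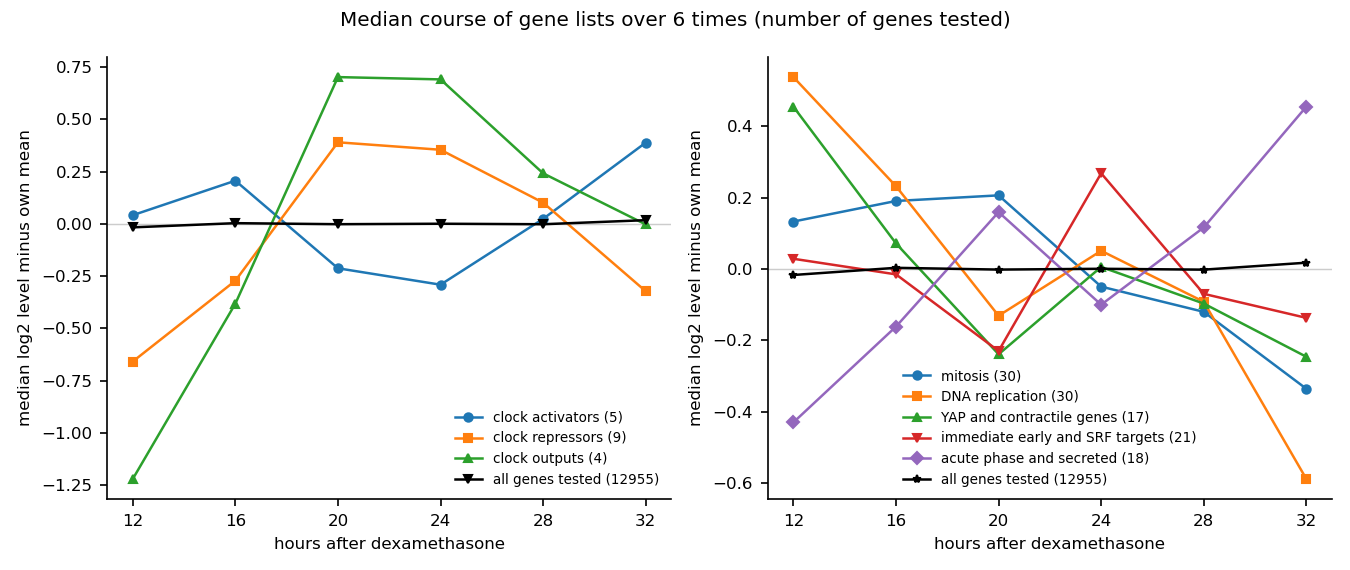
Median over the tested genes of each list of the log2(TPM + 1) level minus the gene's own mean, against hours after dexamethasone, for clock lists (left) and other lists (right), with the number of genes tested and all genes in black. Clock repressors and output genes are high at CT20 and CT24, mitotic genes at CT16 and CT20, DNA replication genes decline with a rise at CT24, and immediate early genes spike at CT24.

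Other groups differed between the first and the last time, when 33.6% of all genes were higher at CT32 than at CT12 and 32.1% lower. Of 18 secreted and acute phase genes 15 rose and 2 fell from CT12 to CT32 (median log2 change 0.94), among them the serum amyloid gene Saa3, from 1423 ± 78.6 to 5717 ± 355 TPM. Cholesterol synthesis genes fell in 19 of 23, heat shock chaperone genes in 15 of 18, ATF4 target genes, which answer a lack of amino acids, in 16 of 22 and genes of the methionine cycle and one-carbon metabolism in 16 of 21 over the same span. Endoplasmic reticulum chaperone genes rose in 14 of 21 and collagen genes in 11 of 15, but neither in one direction throughout. Of the 21 chaperone genes 11 fell from CT12 to CT16, 14 rose from CT16 to CT20 and 7 fell from CT20 to CT24. Of the 15 collagen genes 8 rose from CT16 to CT20 and 6 fell from CT20 to CT24. Among all genes, 26.9% changed from CT12 to CT16, 24% from CT16 to CT20 and 13.6% from CT20 to CT24, in either direction. The cosine test passed for 2 of the 23 cholesterol, 1 of the 18 heat shock and 9 of the 22 ATF4 genes. It also passed for 4 of the 21 methionine, 6 of the 21 chaperone and 4 of the 15 collagen genes. Among all genes 11.8% passed, and no test compares these counts with that share.

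Ribosomal protein genes had small amplitudes. Of 30 tested, 0 passed the cosine test in limma, and their median amplitude was 0.053. An unadjusted p below 0.05 was found in 4, against 4719 of all 12955 genes. With a trend term 3 passed and without CT20 4 did, against 24.1% and 28.6% of all genes. Any difference among the times was called in 10 of the 30, against 65.6% of all genes. At CT16 6 were lower than at CT12, and at CT20 7 were higher than at CT16. Of all 12955 genes, 1942 were lower at the first of these steps and 1563 higher at the second. In the remaining lists, 7 of 27 genes of glycolysis and hypoxia passed the cosine test, 4 of 18 of the NRF2 response, 3 of 23 p53 targets, 2 of 14 interferon-stimulated genes, 4 of 19 of collagen maturation and 1 of 15 of NAD salvage and sirtuins. Of 4 cold-inducible RNA-binding genes 0 passed in limma, with 2 at an unadjusted p below 0.05. The cosine counts with all 18 libraries stand beside 11.8% of all genes, and no test compares them.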

How the data were processed

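TruSeq libraries were prepared from TRIzol RNA, per the labels' protocols. Per the submitters' processing notes, bcl2fastq 2.18.0.12, Trimmomatic 0.36, TopHat2 2.1.1 and Cufflinks 2.2.1 were used with mm10. Annotation and use of strand: not given in the sources used here. Reads of genes that overlap, antisense pairs included, therefore cannot be assigned with certainty. The authors deposited TPM for the WT and KO series, a unit read here from the column sums, and FPKM for the DMSO fibroblasts, and depth is unknown in both.

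WT values were rescaled by median ratios, kept at 1 TPM or more in at least 3 libraries and tested as log2(TPM + 1) with limma 3.58.1 in R 4.3.3 (trended prior, Benjamini-Hochberg adjustment, threshold 0.05). A 24 h sine and cosine gave the F test, amplitude and peak time. One model with the 6 times gave the steps, and an added CT20 term the departures at CT20. FPKM were treated likewise. On simulated data of 12955 genes, 96% of 50 genes with a rhythm of amplitude 0.25 were recovered, and 7 genes without a rhythm were called. The simulated rhythms were exact cosines with noise at the spread between replicates. Departures from the cosine were absent there, so this share does not give the recovery in the WT data. Gene positions are from the GENCODE vM21 annotation of GRCm38.

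Named were all clock genes, the 4 largest amplitudes within 2 h of each time (mean of at least 5 TPM, also called without CT20), up to 4 genes per list by p, and the 6 largest departures each way at CT20. Eno3, Myod1, Actc1, Des, Hbb-b1, Gm129, Csnk1d, Fbxl21, Nampt, Fkbp5, Tgm2, Sgk1, Mcm3, Fos and Saa3 were named after their values were seen. Members and lists were chosen with earlier results of these data known. Nothing says that replicates came from separate cultures, so p-values measure only the spread between these libraries, which may be technical.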

Additional observations from a re-analysis of the deposited data

Results flagged for a closer look

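For 8 named genes, every CT24 library lay on one side of the CT12 libraries in WT fibroblasts and on the other side in DMSO fibroblasts, and the difference between the sets was not tested. Higher at CT24 in WT and lower in DMSO fibroblasts were Egr1 (log2 changes of 1.17 and -0.52), Btg2 (0.42 and -0.090), Cxcl1 (0.60 and -0.42), Fas (0.28 and -0.29), Klf4 (0.13 and -0.053) and Ly6c1 (0.47 and -0.33). Lying on one side is not a call, and the change of Btg2 in DMSO fibroblasts did not pass (adjusted p = 0.37, limma). Egr1, Btg2 and Klf4 belong to the immediate early list. Lower in WT and higher in DMSO fibroblasts were H6pd (-0.92 and 0.69), a dehydrogenase of the endoplasmic reticulum, and Spp1 (-0.46 and 0.21), which encodes osteopontin.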

How the results depend on the processing

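The count of 1524 rhythmic genes moved to 3675 without CT20, 3119 with a linear trend, 2830 with both changes, 318 with a period of 22 h, 4205 with 26 h, 437 without the libraries with high Malat1 and 6954 against the spread between replicates. The count of 64 with an amplitude of 0.5 or more moved to 189 without CT20, 156 with a trend, 17 at 22 h, 118 at 26 h, 123 with a pseudocount of 0.1 and 139 against the replicate spread. Genes departing at CT20 numbered 416 with no filter, 130 with a mean of at least 5, 1279 with a trend, 108 at 22 h, 476 at 26 h and 124 without high Malat1. Clock genes changed alike in WT and DMSO fibroblasts fell to 8 with a mean of at least 5. The fits without high Malat1, against the replicate spread and without CT20 with a trend were chosen after seeing the data.

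Leaving out 1 library at a time gave 767 to 1837 rhythmic genes, 43 to 78 with an amplitude of 0.5 or more, 15 to 16 clock genes, 7736 to 8840 genes differing among times, 9 to 14 clock genes alike in WT and DMSO fibroblasts, and 37 to 496 genes departing at CT20. For the 5 steps in order the ranges were 2225 to 4290, 2062 to 3314, 1242 to 2012, 656 to 1865 and 2505 to 4364. Rhythmic genes fell by over 1.5 times without CT12 replicate 1 (994), CT12 replicate 3 (1005), CT16 replicate 2 (767), CT16 replicate 3 (849), CT28 replicate 3 (926) or CT32 replicate 2 (964). Departures at CT20 moved as far without CT16 replicate 2 (496), CT20 replicate 1, 2 or 3 (40, 37 and 68), CT24 replicate 1 (111) or CT24 replicate 2 (131). So did the first step without CT12 replicate 2 (2225), the second without CT16 replicate 3 (2062), the fourth without CT24 replicate 1 (710), CT28 replicate 2 (656) or CT28 replicate 3 (685), and the comparison with DMSO without DMSO CT24 replicate 1 (9).

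With a replicate block, 877 genes were rhythmic and 129 departed at CT20. Whether replicate numbers pair the libraries was not settled. Deviations correlated above 0.1 in 5 of 45 same-numbered pairs (median r 0.025) and in 4 of 90 differently numbered pairs (median r -0.0094). Of the 18 libraries, 9 correlated best with their own number. With a trend the peak moved by over 6 h in Agt (amplitude 0.62), Col6a3 (0.19), Gjb2 (0.29), Mir17hg (0.22), Mthfd2 (0.21) and Odc1 (0.22), and without CT20 as well in Agt (0.45), Col6a3 (0.16), Mir17hg (0.22), Mthfd2 (0.19) and Odc1 (0.15). For named genes, 1143 values kept their call and 229 lost it under the other settings, and 1655 kept it and 307 lost it when 1 library was left out. The cause of these shifts was not tested.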
